A study of Mus musculus with 16 samples.

Results

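The NR4A family consists of 3 genes, *Nr4a1* (Nur77), *Nr4a2* (Nurr1), and *Nr4a3* (Nor1). All 3 were taken by symbol from the 51912 genes of a raw count table for lung group 2 innate lymphoid cells (ILC2s), the innate counterparts of Th2 cells. The table holds bulk mRNA-Seq of ILC2s from WT mice and from *Pac1-/-* mice, the latter on the C57BL/6J background, all 6 to 8 weeks old. *Pac1-/-* mice lack PAC1, the nuclear phosphatase encoded by *Dusp2*, in every cell type, so the genotype is not limited to ILC2s. ILC2s of both genotypes received 1 of 4 treatments for 4 hours, and all 4 contained IL-7 at 100 ng/mL. One was IL-7 by itself (IL-7), and the second added the alarmin IL-33 at 100 ng/mL (IL-33). To this combination the other two added a neuropeptide at 500 ng/mL, either CGRP (CGRP) or NMU (NMU). CGRP is known as an inhibitor and NMU as an activator of ILC2s. There were 8 groups of 2 libraries, and each library came from about 500 ILC2s. The study's culture methods expand lung ILC2s for 1 to 2 weeks in IL-2 and IL-7 before stimulation, and for these libraries that step is not stated. Neither the labels nor the methods say whether the 2 libraries of a group came from separate mice, so P values measure the spread between libraries, which may be technical.

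The libraries had 6764992 to 15963357 counted reads. On the CPM scale, which divides a count by the size of its library, a floor of 3 counts lay between 0.188 and 0.443. The NR4A genes were well above it, with 440 to 3024 reads of *Nr4a1*, 148 to 2403 of *Nr4a2*, and 274 to 2684 of *Nr4a3* per library. *Dusp2* had 0 counts in 8 of 8 *Pac1-/-* libraries but also in 6 of 8 WT libraries, so it does not check the genotype of most libraries. All 13 ILC2 markers fixed for the check (among them *Gata3*, *Il1rl1*, and *Il7r*) had reads in every treatment. In bulk samples, fewer cells of a type and less RNA per cell cannot be told apart.

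NR4A proteins are orphan nuclear receptors, transcription factors that work without a known classical hormone ligand. Their activity is set mainly by how much protein is made, and their genes are immediate early genes, switched on from existing signaling proteins without new protein synthesis. Cyclic AMP (cAMP) does this through protein kinase A and the CREB family of factors, and calcium does it through calcineurin and MEF2. The CGRP receptor, built from *Calcrl* and *Ramp1*, raises cAMP, whereas the NMU receptor *Nmur1* signals through Gq and calcium. In T cells, NR4A factors are known for restraining effector functions and for marking recent antigen receptor signals.

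The sequences just upstream of the 3 start sites are shown because they hold a feature that the family shares and few other genes have. Each is given 5′ to 3′ on the strand of its gene, from RefSeq on GRCm38.p6, with the CRE half-site CGTCA, or its reverse complement TGACG, in capitals. The half-site is the core to which CREB family factors are known to bind. For *Nr4a3*, the upstream stretch overlaps an exon of the GENCODE annotation, and the letters shown stop before it.
Nr4a1, chr15:101266596-101266845, plus strand: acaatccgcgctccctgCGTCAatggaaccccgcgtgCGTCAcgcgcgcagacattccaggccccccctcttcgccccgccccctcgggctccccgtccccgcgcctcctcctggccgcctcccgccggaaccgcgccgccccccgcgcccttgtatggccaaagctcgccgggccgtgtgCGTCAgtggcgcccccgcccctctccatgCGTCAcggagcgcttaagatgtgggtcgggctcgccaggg
Nr4a2, chr2:57124004-57124253, minus strand: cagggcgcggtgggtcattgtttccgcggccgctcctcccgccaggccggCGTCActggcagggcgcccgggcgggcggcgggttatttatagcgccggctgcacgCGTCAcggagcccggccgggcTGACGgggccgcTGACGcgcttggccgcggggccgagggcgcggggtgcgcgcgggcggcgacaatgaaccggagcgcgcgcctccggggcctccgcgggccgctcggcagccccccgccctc
Nr4a3, chr4:48045055-48045152, plus strand: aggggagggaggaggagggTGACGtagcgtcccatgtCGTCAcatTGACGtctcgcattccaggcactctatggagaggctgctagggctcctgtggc

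Each of the 250-base windows upstream of the RefSeq start sites held 4 CRE half-sites. In *Nr4a3*, 3 of the 4 lie in the 98 bases shown. Of 32851 RefSeq promoter windows of this length, 17.8% had at least 1 half-site on either strand and only 45, or 0.137%, had 4 or more. The threshold of 4 was taken from the NR4A windows themselves, so this share is a description. The NR4A windows are rich in G and C (74.4% for *Nr4a1*, 80% for *Nr4a2*, and 63.6% for *Nr4a3*), and among the 9178 windows with at least 60% GC the share with 4 or more half-sites was 0.371%. In *Nr4a1*, all 4 half-sites were on the strand of the gene, between 36 and 233 bases upstream of the start site. In *Nr4a2*, 2 were on each strand between 107 and 200 bases upstream, and in *Nr4a3*, 1 was on the strand of the gene and 3 were on the opposite strand between 143 and 231 bases upstream. None of the 3 windows held the full CRE (TGACGTCA, on either strand, which contains both half-sites), the AP-1 motif TGANTCA, the CArG box, the NBRE (AAAGGTCA, the motif that NR4A proteins bind as monomers), or the EGR motif GCGTGGGCG. These are matches of letters, and binding was not measured in these libraries.

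**Figure D1:**
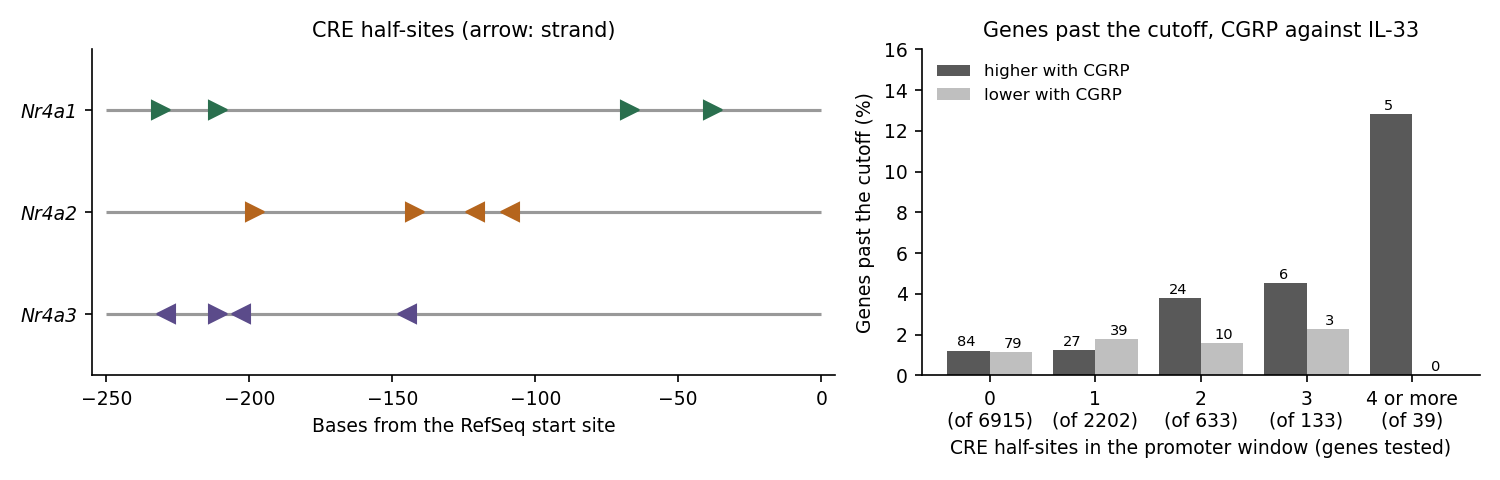
Left, CRE half-sites in the 250 bases upstream of the RefSeq start of each NR4A gene, as arrows pointing along the strand, against the distance from the start in bases; each gene has 4. Right, share of tested genes (in percent) that were higher (dark bars) or lower (light bars) with CGRP than with IL-33, past the cutoff, against the number of half-sites, with genes counted above the bars; 3 of the 5 genes in the last dark bar are the NR4A genes.

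In the GENCODE M21 annotation of GRCm38, *Nr4a1* (ENSMUSG00000023034) spans bases 101254269 to 101274795 of chromosome 15 on the plus strand. Its window above lies inside this span, in sequence that no annotated exon covers, because longer annotated transcripts start farther upstream. *Nr4a2* (ENSMUSG00000026826) spans bases 57106830 to 57124003 of chromosome 2 on the minus strand, and *Nr4a3* (ENSMUSG00000028341) spans bases 48045153 to 48086447 of chromosome 4 on the plus strand. No other annotated gene overlaps them, and no other gene shares a stretch of at least 100 bases at 95% identity or more, so reads were unlikely to be split with other genes.

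CGRP-treated ILC2s had the highest mean level of every NR4A gene. In library order (replicates 1 and 2 of WT, then of *Pac1-/-*), *Nr4a2* was at 158, 149, 243, and 311 CPM with CGRP, where CPM use TMM-scaled library sizes. With IL-33 and no neuropeptide it was at 31.5, 27.0, 11.3, and 20.5 CPM. No CGRP library was near the IL-33 libraries. *Nr4a3* was at 225, 294, 235, and 229 CPM with CGRP and at 22.1, 34.1, 16.3, and 47.0 CPM with IL-33. *Nr4a1* was at 269, 226, 275, and 378 CPM with CGRP and at 59.1, 82.1, 86.3, and 170.5 CPM with IL-33. For all 3 genes, the 4 CGRP libraries lay above the 4 IL-33 libraries without overlap, and *Nr4a1* started from a higher level and had the smaller gap. Of all 14979 tested genes, 5.82% separated in this way.

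Averaged over the genotypes, CGRP raised *Nr4a2* 9.54-fold over IL-33 (95% CI, 6.05 to 15.04) with a log2 fold change of 3.25 ± 0.30 SE (adjusted P = 7.0e-05, edgeR quasi-likelihood test, Benjamini-Hochberg adjusted). *Nr4a3* rose 8.23-fold (95% CI, 4.96 to 13.7, adjusted P = 0.00033, edgeR), and *Nr4a1* rose 2.99-fold (95% CI, 2.06 to 4.32, adjusted P = 0.00407, edgeR). The cutoff, here and for every count below, was a fold change above 1.5 and an adjusted P value under 0.05. The share of all tested genes that were higher at this cutoff was 1.65%, and 3 of 3 NR4A genes were among them. Among the 247 genes that rose, *Nr4a2* ranked 49th, *Nr4a3* 54th, and *Nr4a1* 114th by fold change.

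**Figure D2:**
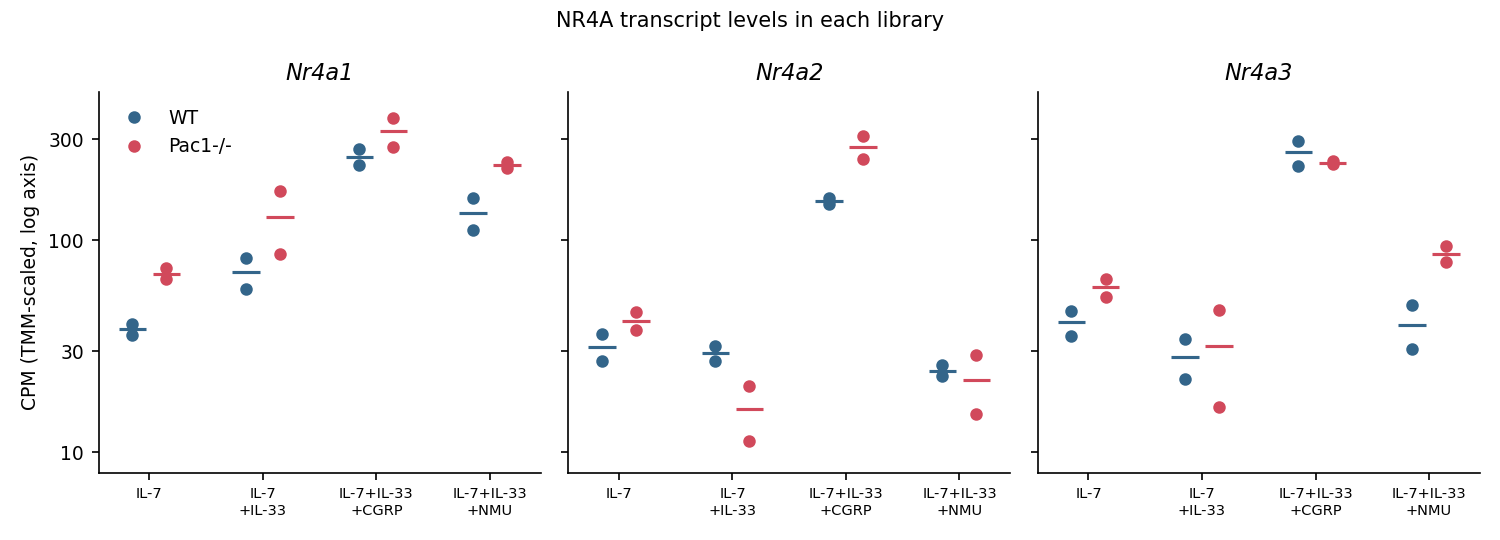
NR4A levels in each of the 16 libraries, in CPM on a log axis; points are libraries, short lines are means of 2, and the 4 positions on the horizontal axis are the treatments. The CGRP libraries of *Nr4a2* and *Nr4a3* lie above all others, whereas those of *Nr4a1* overlap with the NMU libraries.

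Against IL-7 alone, a comparison added after the data were seen, all 3 genes were also higher with CGRP, which was given together with IL-33. The rises were 5.52-fold for *Nr4a1*, 5.69-fold for *Nr4a2*, and 4.96-fold for *Nr4a3*, with adjusted P = 0.000209, 0.000588, and 0.00231 (edgeR's quasi-likelihood test). The share of all tested genes that were higher was 1.22%. The comparisons with IL-33 and with IL-7 share the CGRP libraries.

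The CGRP libraries of *Nr4a2* and *Nr4a3* also lay above all 12 other libraries. The highest other values were 45.7 CPM for *Nr4a2* (*Pac1-/-* with IL-7) and 93.7 CPM for *Nr4a3* (*Pac1-/-* with NMU). *Nr4a1* did not separate in this way, because *Pac1-/-* ILC2s with NMU reached 234 CPM and the lowest CGRP library was at 226 CPM. Of all tested genes, 3% had their 4 CGRP libraries above the 12 others.

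IL-33 by itself moved no NR4A gene past the cutoff. *Nr4a1* was at 35.6, 40.4, 65.4, and 73.8 CPM with IL-7, in the same library order, and was 1.85-fold higher with IL-33 (95% CI, 1.29 to 2.66, adjusted P = 0.337, edgeR). *Nr4a2* was at 26.9, 36.1, 37.5, and 45.7 CPM with IL-7, and IL-33 gave 0.596 times that level (95% CI, 0.391 to 0.909, adjusted P = 0.437, edgeR). *Nr4a3* was at 46.5, 35.3, 53.9, and 65.9 CPM with IL-7, and IL-33 gave 0.602 times that level (95% CI, 0.375 to 0.967, adjusted P = 0.47, edgeR). The libraries of IL-7 and IL-33 overlapped for all 3 genes. Only 5 genes, 0.0334% of those tested, passed the cutoff in either direction in this comparison. DESeq2 placed *Nr4a1* past the cutoff as 1 of 296 genes (1.98% of those tested).

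*Nr4a1* was higher with NMU, which was given together with IL-33, than with IL-7 alone, so this difference is not that of NMU by itself. *Nr4a2* and *Nr4a3* were at 0.638 and 1.185 times their IL-7 levels, not past the cutoff (adjusted P = 0.398 and 0.895, edgeR). *Nr4a1* was at 111, 157, 234, and 219.9 CPM with NMU, 3.39-fold above IL-7 (95% CI, 2.34 to 4.92, adjusted P = 0.00548, edgeR's quasi-likelihood test). This comparison was also added after the data were seen, and 0.401% of all tested genes were higher in it. The 4 NMU libraries lay above the 4 IL-7 libraries without overlap, as they did for 4.61% of all tested genes. They overlapped with the IL-33 libraries, over which *Nr4a1* was 1.84-fold higher (95% CI, 1.28 to 2.64, adjusted P = 0.302, edgeR). Only DESeq2 placed this difference past the cutoff, as 1 of 220 genes of the 14979 tested. *Nr4a2* stayed low with NMU, at 22.8, 25.7, 28.9, and 15.1 CPM, which was 1.07 times the IL-33 level (95% CI, 0.703 to 1.63, adjusted P = 1.0, edgeR). *Nr4a3* was at 49.3, 30.5, 79.3, and 93.7 CPM with NMU, 1.97-fold above IL-33 (95% CI, 1.22 to 3.17, adjusted P = 0.48, edgeR). None of the 3 passed the cutoff against IL-33, where 0.187% of all tested genes did in either direction.

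The 2 neuropeptides, given on top of the same IL-7 and IL-33 and at the same mass concentration, were also compared with each other. *Nr4a2* was 8.91-fold higher with CGRP than with NMU (95% CI, 5.66 to 14.0, adjusted P = 9.2e-05, edgeR), and *Nr4a3* was 4.18-fold higher (95% CI, 2.56 to 6.81, adjusted P = 0.00248, edgeR). *Nr4a1* was 1.63-fold higher (95% CI, 1.13 to 2.34), which did not pass the cutoff (adjusted P = 0.119, edgeR), and DESeq2 and a stricter count filter did place it past the cutoff. In this comparison, 2.63% of all tested genes were higher with CGRP at the main settings. In either direction, 820 of 14979 genes passed there. The other 2 settings placed more past it, 1105 of 5992 genes with the stricter filter and 1886 of 14979 with DESeq2. By mean level, *Nr4a1* was ordered IL-7, IL-33, NMU, and CGRP (53.8 ± 18.7, 99.5 ± 48.8, 181 ± 56.9, and 287 ± 64.6 CPM; SD, n = 4), and no neighbors in this order differed past the cutoff. *Nr4a2* and *Nr4a3* were high with CGRP (215 ± 76.5 and 246 ± 32.6 CPM; SD, n = 4) and did not differ past the cutoff among the other 3 treatments.

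**Figure D3:**
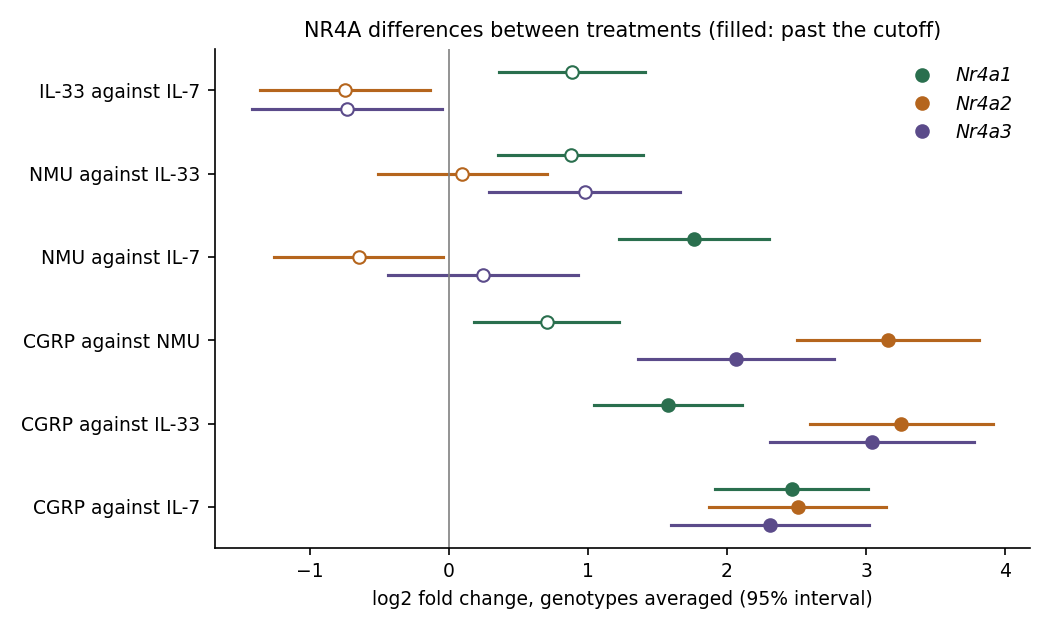
Log2 fold changes of the NR4A genes in 6 comparisons of treatments, averaged over the genotypes, with 95% intervals; filled points passed the cutoff. All points for CGRP against IL-33 and against IL-7 are filled, and in NMU against IL-7 only *Nr4a1* is.

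The make-up of the family also differed between treatments. CPM per kilobase of exon sequence, a rough scale for comparing genes, averaged 81.8 for *Nr4a1*, 53.0 for *Nr4a2*, and 41.1 for *Nr4a3* with CGRP. The divisor was the length of all annotated exons (3.51, 4.06, and 5.99 kilobases), and the isoforms expressed were not measured. The order of *Nr4a2* and *Nr4a3* with CGRP depends on it, since their means in CPM were 215 and 246. With NMU the levels per kilobase were 51.5, 5.70, and 10.6. Summed over the 3 genes, the level per kilobase was 32.8 ± 8.90 for IL-7, 38.9 ± 15.4 for IL-33, 176 ± 33.5 for CGRP, and 67.7 ± 19.98 for NMU (SD, n = 4). *Nr4a1* was the most abundant member in every treatment by this mean.

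*Nr4a1* made up 46.1% of the summed level per kilobase with IL-7 (41.3% to 50.5% over the 4 libraries) and 46.4% with CGRP (42.8% to 50.1%). It made up 71.4% with IL-33 (59.5% to 81.7%) and 75.6% with NMU (69.6% to 79.7%). The libraries of IL-7 and CGRP lay below those of IL-33 and NMU without overlap. These shares were computed within a library and therefore do not depend on the scaling between libraries. The 6 pairs of treatments were compared with a two-sided exact permutation test (4 libraries against 4, smallest possible P = 0.0286), chosen after the shares were seen. The 4 pairs of IL-7 or CGRP with IL-33 or NMU each gave exact P = 0.0286 (adjusted over the 6 pairs, 0.0429). Any 4 libraries that separate from 4 others without overlap give this smallest P, so it adds nothing to the separation already seen. Each set of 4 libraries also mixed the genotypes. The difference of IL-7 minus CGRP was −0.322 percentage points (exact P = 0.914), and that of IL-33 minus NMU was −4.16 points (exact P = 0.543).

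**Figure D4:**
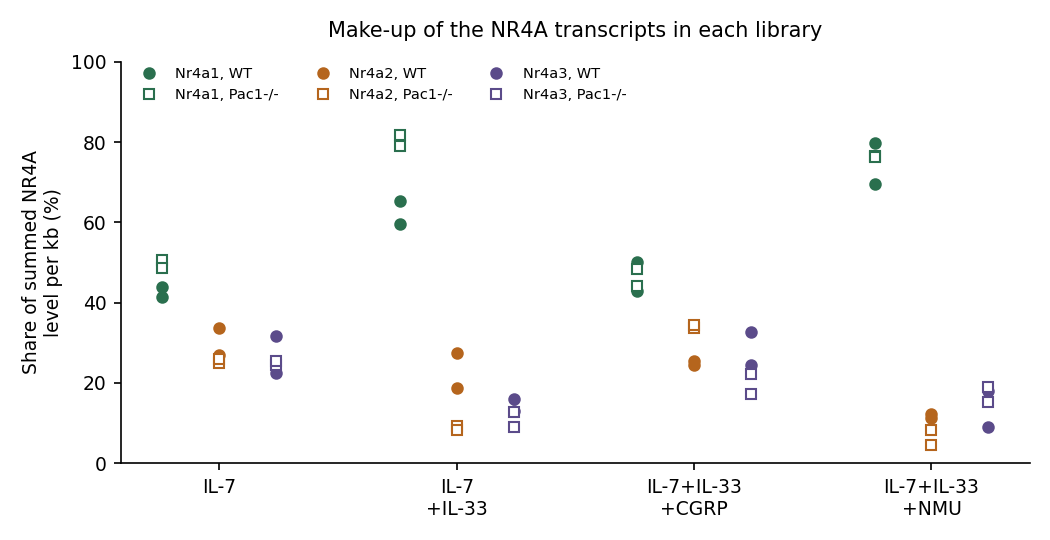
Share of each NR4A gene in the summed NR4A level per kilobase of exon, in percent, for each library under the 4 treatments; filled circles are WT and open squares are *Pac1-/-* libraries. The share of *Nr4a1* lies at 41.3% to 50.5% with IL-7 and with CGRP and at 59.5% to 81.7% with IL-33 and NMU.

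Whether loss of PAC1 altered the family was compared within each treatment. *Nr4a1* was higher in both *Pac1-/-* libraries than in both WT libraries in 4 of 4 treatments. With 2 libraries against 2 such a separation is common, and in single treatments it held for 14.4% (IL-7), 17.5% (IL-33), 19.3% (CGRP), and 14.5% (NMU) of all tested genes. With IL-7, WT averaged 37.99 ± 3.37 CPM and *Pac1-/-* averaged 69.6 ± 5.95 CPM, and with IL-33 the means were 70.6 ± 16.3 and 128 ± 59.6 CPM (SD, n = 2). They were 247 ± 30.9 and 326 ± 73.1 CPM with CGRP, and 134 ± 32.6 and 227 ± 9.85 CPM with NMU (SD, n = 2). The folds of *Pac1-/-* over WT were 1.83, 1.82, 1.32, and 1.69 in the same order of treatments.

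None of these 4 differences in *Nr4a1* passed the cutoff, with adjusted P between 0.741 and 1.0 (edgeR's quasi-likelihood test). Few genes did in any treatment, with 0.00668% of all tested genes for IL-7, 0.00668% for IL-33, 0.107% for CGRP, and 0.02% for NMU. Averaged over the treatments, a comparison added after the data were seen, *Nr4a1* was 1.65-fold higher in *Pac1-/-* ILC2s (95% CI, 1.28 to 2.13, log2 fold change 0.72 ± 0.17 SE, adjusted P = 0.305, edgeR), and 0.113% of all tested genes passed in either direction. The pattern of 4 of 4 treatments was read after the values were seen and has no test of its own. Of all tested genes, 0.187% had *Pac1-/-* libraries above WT libraries without overlap in all 4 treatments. DESeq2 called *Nr4a1* in the averaged comparison (adjusted P = 0.0115), as 1 of 134 genes of the 14979 tested. Over the 5 alternatives of that comparison that kept all 16 libraries, the adjusted P value ranged from 0.0115 (DESeq2) to 0.311 (edgeR). The log2 fold change was 0.84 without *Pac1-/-* IL-33 replicate 1 and 0.59 without replicate 2 of that group.

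*Nr4a2* did not keep 1 direction between the genotypes. Both *Pac1-/-* libraries were above both WT libraries with IL-7 and with CGRP, and both were below with IL-33. Of all tested genes, 14.4% were above with IL-7, 19.3% were above with CGRP, and 14.7% were below with IL-33 in this way. The folds of *Pac1-/-* over WT were 1.32 (IL-7), 0.543 (IL-33), 1.80 (CGRP), and 0.906 (NMU), with adjusted P between 0.638 and 1.0 (edgeR). Averaged over the treatments, the fold was 1.04 (95% CI, 0.773 to 1.40).

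*Nr4a3* was higher in both *Pac1-/-* libraries with IL-7 and with NMU and overlapped with IL-33 and CGRP. The shares of all tested genes that were higher in this way were 14.4% with IL-7 and 14.5% with NMU. The fold was 2.17 with NMU (95% CI, 1.10 to 4.26), where WT libraries had 49.3 and 30.5 CPM and *Pac1-/-* libraries had 79.3 and 93.7 CPM. It was 1.46 for IL-7, 1.12 for IL-33, and 0.895 for CGRP. No fold passed the cutoff (adjusted P between 0.958 and 1.0, edgeR).

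**Figure D5:**
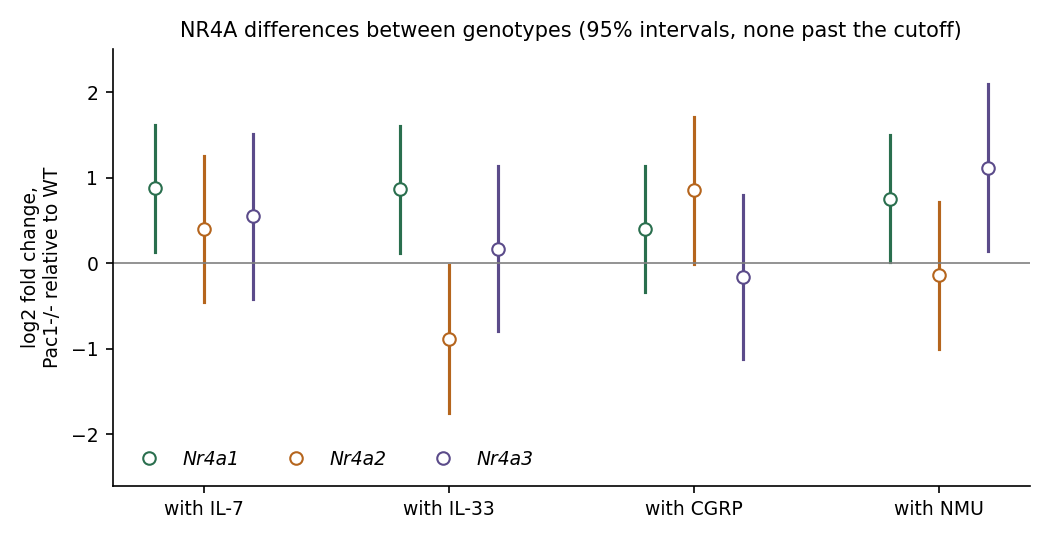
Log2 fold changes of the NR4A genes in *Pac1-/-* relative to WT ILC2s within each of the 4 treatments, with 95% intervals. The *Nr4a1* points lie above 0 in all 4, and *Nr4a2* changes sign; none passed the cutoff.

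The response to CGRP was then compared between the genotypes. *Nr4a2* was 5.23-fold higher with CGRP than with IL-33 in WT ILC2s and 17.4-fold higher in *Pac1-/-* ILC2s. The ratio of these folds was 3.33 (95% CI, 1.43 to 7.72), with an unadjusted P value of 0.00875 and an adjusted P value of 0.788 (interaction term, edgeR's quasi-likelihood test). Without either of the *Pac1-/-* IL-33 libraries, the log2 value of 1.73 became 1.31 or 2.20. For *Nr4a3* the folds were 9.23 in WT and 7.35 in *Pac1-/-* ILC2s (ratio 0.796; 95% CI, 0.31 to 2.04), and for *Nr4a1* they were 3.51 and 2.54 (ratio 0.725; 95% CI, 0.352 to 1.49). Within 1 genotype, *Nr4a2* and *Nr4a3* rose past the cutoff in WT and in *Pac1-/-* ILC2s. The *Nr4a1* rise passed it in WT (adjusted P = 0.0462, edgeR) but not in *Pac1-/-* ILC2s (adjusted P = 0.0924, edgeR). Its ratio between the genotypes did not pass (adjusted P = 0.986, edgeR), so this is no difference between them. Of 14979 tested genes, 50 were higher with CGRP in WT and 119 in *Pac1-/-* ILC2s.

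No gene at all passed the cutoff in the 3 interaction comparisons (0% for IL-33 over IL-7, 0% for CGRP over IL-33, and 0% for NMU over IL-33, edgeR), although 726, 905, and 813 genes had an unadjusted P value under 0.05 and DESeq2 called 20, 131, and 28. The IL-33 response of *Nr4a2* differed in the opposite direction, with a log2 fold change of −0.10 in WT and −1.39 in *Pac1-/-* ILC2s (difference −1.28, adjusted P = 0.93, edgeR). That difference and the one for CGRP share the IL-33 libraries. The NMU response differed by −0.11 for *Nr4a1*, 0.74 for *Nr4a2*, and 0.95 for *Nr4a3* on the log2 scale, with adjusted P between 0.974 and 1.0 (edgeR). The *Pac1-/-* libraries with IL-33 were uneven, with *Nr4a1* at 86.3 and 170.5 CPM and *Nr4a3* at 16.3 and 47.0 CPM, and the values for genotype with IL-33 rest on them. Without the second of these, the log2 difference between genotypes with IL-33 moved from 0.86 to 0.30 for *Nr4a1* and from 0.17 to −0.77 for *Nr4a3*.

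Genes around the NR4A factors were followed in lists chosen for their roles. The lists were chosen with earlier results of these data known, so their counts are descriptions and not independent support. Of 16 tested members among 17 other immediate early genes, 11 rose with CGRP over IL-33 and 0 fell, with a median log2 fold change of 2.40 against −0.09 over all tested genes, of which 1.65% rose and 1.11% fell. They included the AP-1 subunits *Jun* (4.17), *Fos* (3.70), and *Fosb* (3.67) and the stress-induced factor *Atf3* (3.26). The growth-factor-induced *Egr1* and *Egr2* were at 1.30 and 2.49 and did not pass the test. Over all alternatives, 11 or 12 members rose.

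Of 11 cAMP-inducible feedback genes, 5 rose with CGRP (median log2 fold change, 1.42) and 0 fell, beside 1.65% and 1.11% of all tested genes. They were *Rgs2* (2.27), a brake on G protein signaling, the MAPK phosphatase *Dusp1* (2.02), the AP-1 subunit *Fosl2* (1.55), the cAMP phosphodiesterase *Pde4b* (1.42), and *Crem* (0.77), which encodes repressors of cAMP-driven transcription. The number that rose was 3 to 6 over the alternatives. Of the genes upstream, 0 of 7 receptor and G protein genes passed the test (median 0.56, with *Calcrl* at 0.84 and *Ramp1* at 0.56), as did 0 of 11 genes of the protein kinase A and CREB arm (median −0.30) and 0 of 12 of the calcium, MEF2, and SRF arm (median 0.22, edgeR). Of all tested genes, 2.76% passed in either direction. Under the alternatives, DESeq2 included, at most 1 gene of each of these lists passed. Several of these genes were near the floor, so their changes were poorly measured. Mean levels in any treatment were at most 3.56 CPM for *Gnas*, 6.11 for *Prkaca*, and 0.694 for *Elk1*. *Mef2c* averaged 1.44 CPM with IL-33 and 18.4 CPM with CGRP (log2 fold change 3.73 ± 1.43 SE, adjusted P = 0.212, edgeR). The retinoid X receptor genes *Rxra*, *Rxrb*, and *Rxrg*, whose products pair with some but not all NR4A proteins, had 0 of 3 past the test (median 0.67) and mean levels of at most 3.12 CPM in any treatment.

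Among 12 tested genes of 15 that are linked to NR4A factors in lymphocytes, 2 were lower with CGRP than with IL-33 (1.11% of all tested genes were) and 0 were higher (median −0.06). Over the alternatives, 1 to 3 were lower and 0 or 1 higher. They were the activation-induced factors *Irf4* (log2 fold change −2.12) and *Batf* (−1.74), whereas *Tox* (−0.24) and *Pdcd1* (−1.09) did not pass the test. With NMU against IL-33, the counts were 1 of 7 receptor genes (*Calcrl*, 2.52) and 1 of the 12 linked genes (*Tigit*, an inhibitory receptor, 2.09), both higher, as were 0.154% of all tested genes. No other gene of these lists passed with NMU or with IL-33 over IL-7 at the main settings (edgeR). Other settings added a few. DESeq2 placed 1 more immediate early gene and 1 more linked gene higher with NMU, 1 receptor gene and 1 gene of the protein kinase A and CREB arm lower with NMU, and 1 gene of that arm higher with IL-33. Without a filter on low counts, 1 receptor gene was lower with NMU.

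The genes whose levels followed each NR4A gene most closely over the 16 libraries differed between the members. Among the 4879 genes that averaged 20 CPM or more, *Nr4a1* was most like *Spry2*, a feedback inhibitor of receptor kinase signaling (Pearson r = 0.869 of log2 CPM), *Areg*, the growth factor amphiregulin (0.856), *Arl5b* (0.832), *Il3* (0.826), and *Rack1* (0.823). *Nr4a2* was most like *1810026B05Rik* (0.958), *2310001H17Rik* (0.957), *Rgs2* (0.955), the nuclear noncoding RNA *Malat1* (0.935), and *Cox7a2l* (0.934). *Nr4a3* was most like *Snhg8* (0.94), *Tob2* (0.927), *Nfkbiz* (0.926), *Csrnp1* (0.905), and *Ptpn13* (0.905). These genes were not shared between the 3 sets of 5. Among themselves, *Nr4a2* and *Nr4a3* had r = 0.845, *Nr4a1* and *Nr4a3* 0.728, and *Nr4a1* and *Nr4a2* 0.541. These correlations are descriptions over 16 libraries that share their treatments and depth. By the means of the 8 groups in place of libraries, 0 of 5 of the genes most like *Nr4a1*, 3 of 5 for *Nr4a2*, and 0 of 5 for *Nr4a3* were again among the closest.

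The number of CRE half-sites was set beside the CGRP response for the 9922 tested genes with a RefSeq promoter window. The share that was higher with CGRP than with IL-33 was 1.22% with 0 half-sites, 1.23% with 1, 3.79% with 2, and 4.51% with 3. With 4 or more it was 5 of 39 genes, namely *Coq10b*, *Rpl34*, and the 3 NR4A genes. Without the NR4A genes it was 2 of 36, or 5.56%. The share that was lower with CGRP was 1.14% with 0 half-sites, 1.77% with 1, 1.58% with 2, 2.26% with 3, and 0 of 39 genes with 4 or more. With NMU over IL-33, 0 of the 39 genes were higher, and over all 9922 genes the shares were 1.47% with CGRP and 0.212% with NMU. These shares are descriptions with no test, and 34 of all 45 windows with 4 or more half-sites had at least 60% GC.

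Markers of other cells moved with the treatment as well. Among B cell markers, *Ighm* was at 100.3, 126, 251, and 156 CPM in the CGRP libraries and at 54.7, 68.6, 96.6, and 38.2 CPM in the IL-33 libraries. *Ms4a1* was highest in the *Pac1-/-* CGRP libraries, at 84.5 and 75.3 CPM, so it moved with the *Nr4a2* difference between genotypes under CGRP. In WT CGRP replicate 1, *Ms4a1* was at 0, *Cd79a* was at 0.623 CPM, *Ighm* was at 100.3 CPM, and *Nr4a1*, *Nr4a2*, and *Nr4a3* were at 269, 158, and 225 CPM. The 3 mast cell and basophil markers summed to 79.3 to 190 CPM with CGRP and 42.8 to 77.9 CPM with IL-33, and *Mcpt8* was at 0 in all CGRP libraries. Most of these sums was *Cpa3* (26.3 to 174 CPM over all libraries), and *Fcer1a* reached at most 15.6 CPM. The 6 T cell markers summed to 86.1 to 159 CPM with CGRP, 35.6 to 166 CPM with IL-33, and 244 to 344 CPM with IL-7, with *Cd8a* at 0 in all 16 libraries. The 6 myeloid markers summed to 1.42 to 11.7 CPM with CGRP and 1.19 to 15.8 CPM with IL-33.

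Markers of other lung cells were higher in some NMU libraries, beside the NMU result for *Nr4a1*. The 6 myeloid markers summed to 2.79 to 123.5 CPM with NMU and 5.80 to 11.95 CPM with IL-7, with *S100a8* at 0 in all of them. The 4 epithelial markers summed to 35.5 to 308 CPM with NMU and 14.2 to 40.96 CPM with IL-7, where *Sftpc* and *Krt8* were at 0. They reached 83.3 CPM with IL-33 and 25.1 CPM with CGRP. The 4 endothelial and fibroblast markers summed to 36.1 to 90.9 CPM with NMU and 14.9 to 44.5 CPM with IL-7. Nearly all of this was *Pecam1*, which reached 90.5 CPM. *Cdh5*, *Col1a1*, and *Col3a1* reached at most 6.06, 0.872, and 1.21 CPM in any library. The epithelial marker *Sftpc* (178.6 CPM, at 0 in 12 of the 16 libraries) was highest in WT NMU replicate 1. The macrophage gene *Lyz2* (112.1 CPM) and the club cell gene *Scgb1a1* (90.5 CPM) were also highest there. Without that library the log2 fold change of *Nr4a1* for NMU against IL-7 was 1.85, against 1.76 with it. The 4 NK and ILC1 markers summed to at most 15.8 CPM and the 2 ILC3 markers to at most 17.9 CPM in any library.

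The 13 ILC2 markers summed to 20360 to 23560 CPM with CGRP, 15510 to 19130 CPM with IL-33, and 25200 to 37760 CPM with NMU. A large part of these sums was the cytokine gene *Il5* (5192 to 27500 CPM over all libraries, median 8161). The sums therefore do not measure ILC2 content. Beyond the marker values given, the part of other cell types in the NR4A results was not tested.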

How the data were processed

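Lung ILC2s were profiled by bulk mRNA-Seq in 16 libraries. The authors amplified full-length cDNA of about 500 ILC2s per library, sequenced paired-end reads of 150 bases, and aligned them to mm10 (named in the submitters' processing notes) with HISAT2. What they deposited is 1 table of raw counts for Ensembl genes, not normalized. The counting tool, the annotation, and the use of strand are not given in the sources used here.

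Libraries were grouped from the sample labels. Symbols and positions came from GENCODE M21 (51633 of 51912 genes had a symbol). Counts were tested in R 4.3.3 with edgeR 4.0.16 (TMM, filterByExpr by group, quasi-likelihood test) in 1 model of the 8 groups over all 16 libraries, adjusted over 14979 genes by the Benjamini-Hochberg method. SE was derived from the F statistic. All 3 NR4A genes passed the filter on low counts. Alternatives were DESeq2 1.42.0, RLE size factors, no filter, a minimum of 10 counts in every library, only the libraries compared, the replicate number as a block, and leaving out each library.

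Named genes were the members, Dusp2, the 5 genes closest to each member (log2 CPM with a prior count of 2), up to 4 called genes of each list, and a few list genes named after their values were seen. Members and lists were chosen with earlier results of these data known. Shares were tested with exact permutation tests in scipy 1.17.1, and similar transcripts were searched with BLAST 2.17.0. Promoter windows of 250 bases were RefSeq's (GRCm38.p6). The model was tested on simulated data for CGRP against IL-33 (13949 genes): 52% of 4-fold and 8% of 2-fold changes were recovered, and 3.23% of calls were unchanged genes. The deviations of same-numbered libraries of different groups had correlations of −0.254 to 0.223 over 28 pairs of groups, above 0.1 in 4. Between WT and Pac1-/- of the same treatment they were 0.223 with IL-33, 0.183 with NMU, 0.00068 with IL-7, and −0.031 with CGRP. The check therefore does not settle whether the numbers pair libraries, and the main model had no replicate block. Counting error alone sets the floor of 3 counts. A listed B cell marker, and the summed level of its list, are not reported here.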

Additional observations from a re-analysis of the deposited data

How the results depend on the processing

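The 42 member values (3 genes in 14 comparisons) were recomputed under up to 22 alternatives each (16 that leave out 1 library and up to 6 others). Of the 921 recomputed values, 893 kept direction and side of the cutoff, 22 reversed, and 6 moved past the cutoff. All 9 values past the cutoff (CGRP against IL-33 and against IL-7 for 3 genes, CGRP against NMU for Nr4a2 and Nr4a3, and NMU against IL-7 for Nr4a1) stayed past it under every setting. With DESeq2, Nr4a1 passed for IL-33 against IL-7 (log2 fold change 0.89), NMU against IL-33 (0.86), CGRP against NMU (0.76), and Pac1-/- against WT averaged over treatments (0.73). With at least 10 counts in every library, Nr4a1 passed for CGRP against NMU (0.76). Without Pac1-/- IL-33 replicate 1, Nr4a1 passed for Pac1-/- against WT averaged (0.84, adjusted P = 0.0397, edgeR). The near-0 IL-33 interaction of Nr4a1 (−0.01) reversed with RLE size factors (0.036), no filter (0.051), at least 10 counts (0.054), and DESeq2 (0.036).

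Other reversals came from leaving out 1 library, on values that did not pass the cutoff. The ranges were −0.61 to 0.40 (IL-33 interaction of Nr4a1), −0.93 to 0.079 (CGRP interaction of Nr4a1), −0.53 to 0.48 (NMU interaction of Nr4a1), −0.17 to 0.35 (Nr4a2, NMU against IL-33), −0.69 to 0.22 (Nr4a2, genotype with NMU), and −0.077 to 0.17 (Nr4a2, genotype averaged). For Nr4a3 they were −0.77 to 0.77 (genotype with IL-33), −0.33 to 0.032 (genotype with CGRP), −1.35 to 0.20 (IL-33 interaction), and −0.95 to 0.59 (CGRP interaction). For Nr4a1, the averaged genotype value ranged from 0.59 to 0.84. The uneven Pac1-/- IL-33 libraries set most of these ends, and the cause was not tested. They also set the range of CGRP against IL-33, 1.38 to 1.88 for Nr4a1, 3.07 to 3.52 for Nr4a2, and 2.76 to 3.53 for Nr4a3.

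The replicate number as a block changed no call of a member. With the block, CGRP against IL-33 was 1.61 for Nr4a1, 3.26 for Nr4a2, and 3.08 for Nr4a3, and 366 genes passed in place of 413. The genes past the cutoff in CGRP against IL-33 numbered 845 without a filter, 230 with only the libraries compared, and 1303 with DESeq2 (656 higher and 647 lower). In CGRP against NMU they numbered 820, and 1318, 495, and 1886 in the same order. Leaving out 1 library leaves a group of 1 library, and the filter then lets more genes through. Without WT IL-33 replicate 1, 18753 genes were tested, and without Pac1-/- CGRP replicate 1, 18508 were, in place of 14979. The counts from leaving out 1 library therefore do not show the effect of that library alone. Leaving out 1 library gave 281 (WT IL-33 replicate 1) to 851 (Pac1-/- CGRP replicate 1) for CGRP against IL-33 and 669 to 1238 for CGRP against NMU. In IL-33 against IL-7, 5 genes passed, with 199 without a filter, 296 with DESeq2, and 5 to 66 leaving out 1 library. In NMU against IL-33 it was 28, with 116, 220, and 31 to 72 in the same order, and 13 with only the libraries compared. For CGRP against IL-7 it was 396, with 862, 1253, and 347 to 731, and for NMU against IL-7 110, with 406, 645, and 96 to 315. For Pac1-/- against WT averaged, 17 genes passed, with 117, 134, and 17 to 103. With CGRP, the genotype count was 16, with 183, 393, and 40 to 237 (the highest without Pac1-/- CGRP replicate 1), and 0 with only the libraries compared (edgeR, where 822 had P under 0.05 before adjustment). For the genotype with IL-7 it was 1, with 21, 63, and 1 to 18, with IL-33 1, with 26, 38, and 2 to 6, and with NMU 3, with 39, 47, and 5 to 13. Depth did not limit the members, since each had at least 148 reads in every library, and the 2 libraries per group set the precision.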
